A study of Rattus norvegicus with 4 samples.

Results

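Genes that mark cholinergic neurons, the cells that signal with acetylcholine, and the motor neurons of the ventral horn were examined on 4 Agilent 2-colour arrays of rat spinal dorsal horn RNA. The set was fixed by name as 6 genes, Chat, Slc18a3, Slc5a7, Mnx1, Ache and Chodl, and its probes were found through the RefSeq accession of each spot. Of the 6 genes, 5 had a probe, with 5 probes and 9 spots per array, among 22831 genes tested from 30367 probes. Chodl, a membrane lectin known from fast motor neurons, had no spot whose accession mapped to it and is not analysed here.

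The arrays came from male rats aged 6 weeks, sampled on day 10. Per the labels, Cy5 held dorsal horn RNA of rats given oxaliplatin, a platinum chemotherapy drug that causes a painful neuropathy, on 2 arrays, and of rats given vehicle on the other 2. Cy3 held dorsal horn RNA of untreated rats on all 4 arrays, so both groups share that kind of reference, and no array had its dyes swapped. Strain, dose and the number of rats behind an array are not given in the sources used here, and the labels call the arrays biological replicates. All oxaliplatin arrays lay on 1 slide and all vehicle arrays on another, so slide and group cannot be told apart.

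Acetylcholine is made from choline and acetyl-CoA by choline acetyltransferase (Chat), packed into synaptic vesicles by the transporter VAChT (Slc18a3), and cleaved after release by acetylcholinesterase (Ache). The high-affinity choline transporter (Slc5a7) then brings choline back into the nerve terminal. In the cord these proteins are best known from motor neurons of the ventral horn, whose identity the homeobox factor Mnx1 helps to fix, and from preganglionic autonomic neurons. A sparse population of cholinergic interneurons also lies in the deep dorsal horn, so Chat RNA by itself does not mark ventral tissue.

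The genes for the enzyme and for the vesicular transporter form the cholinergic gene locus. In the RefSeq annotation of the rat assembly GRCr8, Slc18a3 lies inside Chat on the same strand. The 250 bases upstream of the start site are shown for Chat, Slc18a3, Slc5a7 and Ache, because the first 3 serve the same terminal while Ache followed another pattern across the arrays. They are RefSeq sequences of GRCr8, all on the minus strand, at chr16:7723417-7723666 for Chat, chr16:7722815-7723064 for Slc18a3, chr9:7953510-7953759 for Slc5a7 and chr12:25050411-25050660 for Ache. Capitals mark every match, on either strand, to a set of short motifs. The first, GGGCGG, is the core bound by Sp factors. The next, TGACG, is the core of the cyclic AMP response element. The third, TATAAA, is the box near which transcription often starts, and the last, TAATTA, is a core bound by homeodomain factors.
Chat: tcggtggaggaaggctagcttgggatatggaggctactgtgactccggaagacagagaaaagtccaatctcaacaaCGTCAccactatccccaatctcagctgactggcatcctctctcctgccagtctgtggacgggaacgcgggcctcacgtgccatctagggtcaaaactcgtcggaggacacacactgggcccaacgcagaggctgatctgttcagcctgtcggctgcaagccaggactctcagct
Slc18a3: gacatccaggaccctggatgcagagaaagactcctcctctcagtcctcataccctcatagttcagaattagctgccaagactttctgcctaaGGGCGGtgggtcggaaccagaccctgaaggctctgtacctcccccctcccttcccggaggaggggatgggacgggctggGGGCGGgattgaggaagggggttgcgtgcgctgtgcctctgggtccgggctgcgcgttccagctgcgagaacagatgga
Slc5a7: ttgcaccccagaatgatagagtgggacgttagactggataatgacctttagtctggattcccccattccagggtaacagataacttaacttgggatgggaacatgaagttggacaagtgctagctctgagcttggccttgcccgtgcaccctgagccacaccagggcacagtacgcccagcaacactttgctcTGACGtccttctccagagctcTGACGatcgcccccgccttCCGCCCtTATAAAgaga
Ache: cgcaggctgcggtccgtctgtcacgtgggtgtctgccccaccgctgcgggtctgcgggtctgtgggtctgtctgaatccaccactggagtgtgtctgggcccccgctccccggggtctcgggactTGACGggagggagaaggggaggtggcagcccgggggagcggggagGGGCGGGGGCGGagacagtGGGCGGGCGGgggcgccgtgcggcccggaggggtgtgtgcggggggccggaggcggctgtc
GGGCGG occurred 2 times upstream of Slc18a3, 1 time upstream of Slc5a7, 4 times upstream of Ache and 0 times upstream of Chat. TGACG occurred 1 time for Chat, 2 times for Slc5a7 and 1 time for Ache, and TATAAA 1 time, for Slc5a7. TAATTA occurred in 0 of these 4 windows. Of 33469 windows of the same length in the table, 30.5% held GGGCGG, 18.2% TGACG, 12.9% TATAAA and 4.86% TAATTA. The Ache window was the richest of the 4 in G and C, at 75.6%, against 61.6% for Slc18a3, 57.2% for Chat, 53.2% for Slc5a7 and a median of 51.2% over the table. These matches describe the letters only.

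The cholinergic and motor neuron genes were detected throughout. All 5 were well above background, the scanner software's own flag, in both channels of all 4 arrays, a state reached by 75.4% of all probes. No spot of theirs was saturated or marked as an outlier (0 and 0 spots). Chat was dim. Its median pixel signal in Cy5, as the mean of 2 spots, was 133.5 and 142 on the oxaliplatin arrays, replicate 1 first, and 187.5 and 128 on the vehicle arrays, which is 1.94 to 3.13 times the local background. In Cy3 it was 101.25 and 86 on the oxaliplatin arrays and 143.5 and 91.75 on the vehicle arrays. Mnx1, with 1 spot, was as close to its background, at 2.64 to 3.06 times in Cy5 and 2.12 to 3.25 times in Cy3. The signals of Slc18a3 were 5.99 to 7.86 times the local background in Cy5 and 9.13 to 15.1 times in Cy3. For Slc5a7 the ranges were 12.9 to 15.9 times in Cy5 and 20.5 to 42.6 times in Cy3. For Ache they were 46.6 to 55.8 times in Cy5 and 29.7 to 101 times in Cy3. Every gene of the set was therefore measured on both sides of each ratio, with the least margin for Chat and Mnx1.

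Set against the untreated RNA, all 5 genes had a lower signal in Cy5 on every array of both groups. A log2 Cy5/Cy3 ratio below 0 means that the gene was dimmer in Cy5 than in Cy3, relative to other spots of the same brightness on that array, since loess sets the typical ratio at each brightness to 0. Ratios were below 0 on all 4 arrays for 5 of 5 genes, against 27.6% of all genes, while 34% of all genes were above 0 on all 4. All 5 were called lower in Cy5 (limma, Benjamini-Hochberg over all genes, adjusted p under 0.05), against 26.3% of all genes called lower, 29.3% called higher and 55.6% called either way. Their median ratio was -0.72, and that of all genes 0.029. The p-values measure only the spread between these arrays, which may be technical. Without a dye swap, a difference between the RNAs and a dye bias of a probe cannot be told apart. In a tissue extract, fewer cells of a type and less RNA per cell cannot be told apart either.

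**Figure D1:**
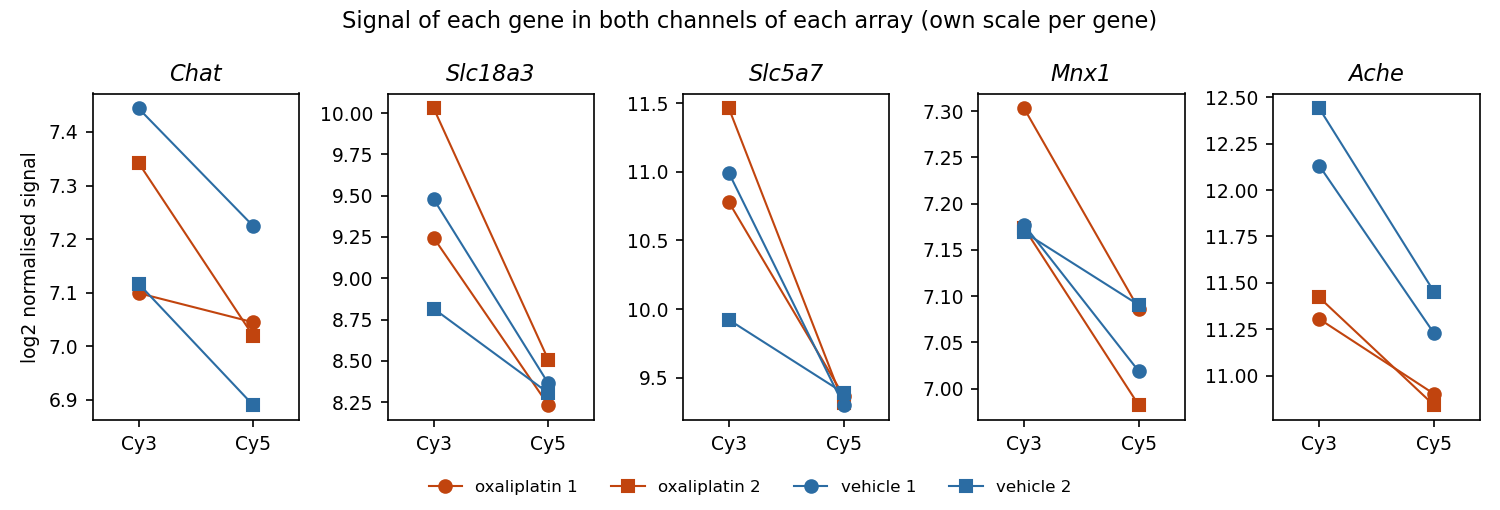
Log2 normalised signal (y axis, own scale per gene) of 5 cholinergic and motor neuron genes in Cy3 and Cy5 (x axis), with a line joining the channels of each array. Every line falls from Cy3 to Cy5. The Cy5 points of Slc5a7 lie within 0.089 of each other while its Cy3 points span 1.54.

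The choline transporter had the lowest ratios of the set. Slc5a7 stood at -1.42 and -2.14 on the oxaliplatin arrays and at -1.70 and -0.55 on the vehicle arrays. Vehicle replicate 2 was the array nearest to 0 and oxaliplatin replicate 2 the farthest, and the groups overlapped. The mean ratio was -1.45 ± 0.19 (SE, n = 4 arrays; limma adjusted p = 9.26e-04), a 2.73-fold lower signal in Cy5, seen on 4 of 4 arrays. The vesicular transporter Slc18a3 was at -1.01 and -1.50 on the oxaliplatin arrays and at -1.13 and -0.52 on the vehicle arrays. From lowest to highest its arrays fell in the same order as those of Slc5a7. Its mean ratio was -1.04 ± 0.12 (limma adjusted p = 5.15e-04), or 2.06-fold lower in Cy5.

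Acetylcholinesterase was lower in Cy5 by a smaller step with a tighter spread. Ache had ratios of -0.39 and -0.57 on the oxaliplatin arrays and of -0.91 and -1.0 on the vehicle arrays. Both vehicle arrays lay below both oxaliplatin arrays. The mean ratio was -0.72 ± 0.062 (limma adjusted p = 1.49e-04), or 1.65-fold lower in Cy5.

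The synthesis enzyme and the motor neuron factor lay nearest to 0. Chat had ratios of -0.050 and -0.32 on the oxaliplatin arrays and of -0.22 and -0.22 on the vehicle arrays. Its mean was -0.20 ± 0.066 (limma adjusted p = 0.0365). Mnx1 had ratios of -0.21 and -0.19 on the oxaliplatin arrays and of -0.17 and -0.076 on the vehicle arrays, with a mean of -0.16 ± 0.057 (limma adjusted p = 0.0481). Both calls were fragile. With oxaliplatin replicate 2 left out, the mean of Chat was -0.14 and its adjusted p 0.116. With vehicle replicate 1 or vehicle replicate 2 left out, the mean was -0.20 and the adjusted p 0.134 both times. The call of Mnx1 was lost without each of the 4 arrays in turn (-0.18 to -0.14, adjusted p of 0.0684 to 0.264). The background correction adds a constant of 50 to each signal, which draws the ratios of dim spots towards 0. In the scanner software's own log ratio, which has no such constant, Chat stood at -0.40 and -0.94 on the oxaliplatin arrays and at -0.49 and -0.52 on the vehicle arrays. Mnx1 stood there at -0.90, -0.57, -0.29 and -0.17 in the same order of arrays. The size of the step in these 2 genes thus depends on the correction, while its sign was the same on all arrays under both. Neighbours in the order of mean ratios from Slc5a7 to Mnx1 were not tested against each other.

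**Figure D2:**
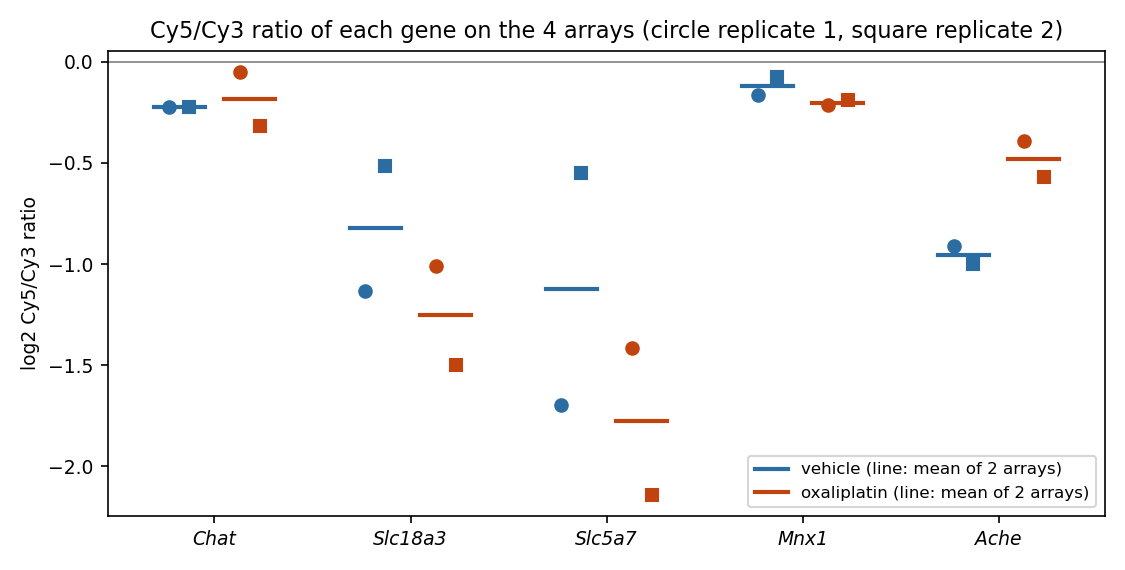
Log2 Cy5/Cy3 ratio (y axis) of each gene (x axis) on 2 vehicle arrays (blue) and 2 oxaliplatin arrays (red), circles for replicate 1 and squares for replicate 2, with a line at each group's mean. All points lie below 0, and the groups are apart for Ache, higher on oxaliplatin, and narrowly for Mnx1, lower on oxaliplatin.

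The spread of these ratios came from different channels in different genes. In Slc5a7 the normalised log2 Cy5 signal was 9.37, 9.31, 9.30 and 9.39, with the oxaliplatin arrays first, a range of 0.089. Its Cy3 signal was 10.78, 11.46, 10.99 and 9.92, a range of 1.54. In these normalised values Cy5, with the RNA of oxaliplatin or vehicle rats, was thus nearly the same on every array, and Cy3 was not. The Cy5 signal of Slc5a7 before normalisation was 952.75 and 960.25 on the oxaliplatin arrays and 805.5 and 905.75 on the vehicle arrays. For Slc18a3 the Cy5 signal ranged over 0.27 and the Cy3 signal over 1.21. Ache ranged over 0.61 in Cy5 and 1.14 in Cy3, Chat over 0.33 and 0.34, and Mnx1 over 0.11 and 0.13. Over all genes the median range was 0.28 in Cy5 and 0.47 in Cy3. The arrays with the highest and the lowest normalised Cy3 signal of both transporters were oxaliplatin replicate 2 and vehicle replicate 2. Before normalisation, vehicle replicate 1 had the highest Cy3 signal of both, 1724.25 for Slc5a7 and 621 for Slc18a3. There oxaliplatin replicate 2 stood at 1199.75 and 455. Oxaliplatin replicate 2 also had the lowest median Cy3 signal of the 4 arrays, 283.5 against 494 to 564 on the others, and the fewest probes well above background in Cy3, 76.9% against 83.2% to 88.1%. The part of that depth in the Cy3 values of the transporters was not tested.

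Whether the drug goes with a change in these genes is the question of the group comparison. None of the 5 genes passed it, and neither did any of the 22831 genes (0 genes, 0% called; 14.6% at an unadjusted p under 0.05; limma, smallest adjusted p over all genes 0.095). Each difference is the mean ratio of oxaliplatin less that of vehicle. Their median over the set was -0.081, against 0.0055 over all genes. The groups did not overlap for Ache, which was higher on the oxaliplatin arrays, and for Mnx1, which was lower. Such a separation was seen in 27% of all genes (higher) and 22.2% (lower), so 2 of 5 is no more than the 49.2% seen in either direction.

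Ache had the largest difference relative to its error. Its ratio was higher on the oxaliplatin arrays by 0.47 ± 0.12 (SE, n = 2 arrays per group; 95% interval 0.18 to 0.77; limma adjusted p = 0.294), and by 0.38 to 0.56 when an array was left out. The signals behind this ratio went the other way. Log2 Cy5 was 10.90 and 10.84 on the oxaliplatin arrays and 11.23 and 11.45 on the vehicle arrays, a difference of -0.47 ± 0.11 (limma adjusted p = 0.178). Log2 Cy3 was 11.31 and 11.42 against 12.13 and 12.44, a difference of -0.92 ± 0.17 (limma adjusted p = 0.153). The oxaliplatin arrays were lower than the vehicle arrays in both channels, and further so in Cy3, the channel of the untreated rats. Without vehicle replicate 1 both single-channel differences passed, at -0.58 in Cy5 (adjusted p = 0.0196) and -1.08 in Cy3 (adjusted p = 0.0313). In single channels the groups were apart with lower values on oxaliplatin for 32.1% of all genes in Cy5 and 31.1% in Cy3, and with higher values for 28% and 27.2%, against 1 of 5 and 0 of 5 here in each channel. The shift of Ache was thus also present in the Cy3 signal, the channel labelled as untreated rats. Both channels were read from the same spots, and each group lay on its own slide. A shift of the RNAs and one of the slides cannot be told apart here.

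The transporters differed by less than their spread. The ratio of Slc5a7 was at -0.65 ± 0.39 (95% interval -1.57 to 0.27; limma adjusted p = 0.466) and that of Slc18a3 at -0.43 ± 0.24 (-1.01 to 0.15; limma adjusted p = 0.445). Both rested most on vehicle replicate 2, without which they were -0.080 and -0.12. Without oxaliplatin replicate 2 they were also smaller, at -0.29 and -0.18. They were -1.23 and -0.74 without vehicle replicate 1, and -1.02 and -0.68 without oxaliplatin replicate 1. In Cy5 alone, Slc5a7 differed by -0.0031 ± 0.078 (95% interval -0.21 to 0.21; limma adjusted p = 0.984) and Slc18a3 by 0.035 ± 0.12 (-0.29 to 0.36; limma adjusted p = 0.879). In Cy3 they differed by 0.66 ± 0.40 and 0.49 ± 0.34 (limma adjusted p = 0.38 and 0.43). When an array was left out these Cy3 differences ran from 0.13 (without vehicle replicate 2) to 1.2 (without vehicle replicate 1) for Slc5a7, and from 0.097 (without oxaliplatin replicate 2) to 0.88 (without oxaliplatin replicate 1) for Slc18a3. Over all 4 arrays the difference was larger in Cy3 than in Cy5 for both genes, with a size that depended on single arrays. The Cy5 interval for Slc5a7 was the narrowest of the set.

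Neither Chat nor Mnx1 passed between the groups, and the size of both differences depended on the correction. Chat differed by 0.041 ± 0.13 in the ratio (95% interval -0.28 to 0.36; limma adjusted p = 0.914), and the sign turned with median centring (-0.28), in the log ratio of the scanner software (-0.16) and without oxaliplatin replicate 1 (-0.092). It differed by -0.025 ± 0.13 in Cy5 and by -0.060 ± 0.19 in Cy3. Mnx1 differed by -0.081 ± 0.11 in the ratio (-0.35 to 0.19; limma adjusted p = 0.772), by -0.020 ± 0.082 in Cy5 and by 0.065 ± 0.15 in Cy3. Its difference in the ratio was -0.51 in the log ratio of the scanner software, -0.41 with median centring and -0.18 with no background correction, with adjusted p of 0.445, 0.303 and 0.562.

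**Figure D3:**
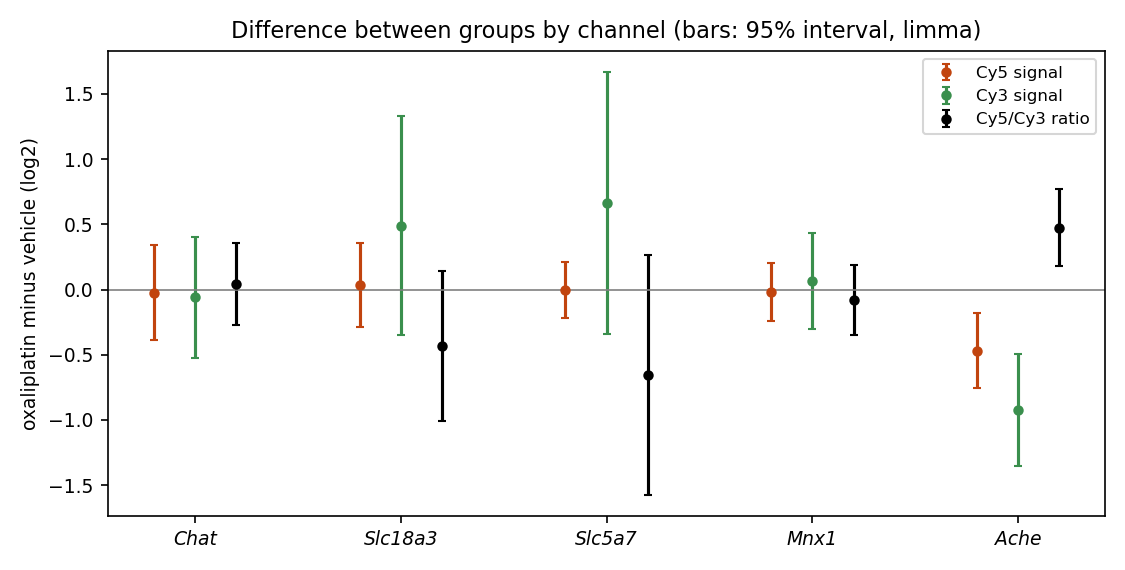
Difference between the groups (y axis, oxaliplatin minus vehicle, log2) of each gene (x axis) in Cy5, in Cy3 and in the Cy5/Cy3 ratio, with 95% intervals from limma. Only the intervals of Ache leave out 0, below it in both channels and above it in the ratio, and none of the adjusted p-values is under 0.05.

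Other genes of acetylcholine handling were mixed in Cy5 against Cy3. Of 10 genes for choline supply, acetylcholine breakdown and anchoring of the esterases, 4 were called lower in Cy5, 1 higher and 5 neither, with a median ratio of -0.066. Slc44a1, a choline transporter of many cell types, stood at -1.46 ± 0.069 (limma adjusted p = 1.19e-05). Prima1, which anchors Ache to neuronal membranes, stood at -0.65 ± 0.057 (adjusted p = 1.68e-04), with -0.74, -0.73, -0.61 and -0.50 on the 4 arrays. Colq, the collagen tail that anchors Ache at the neuromuscular junction, was at -0.24 ± 0.063 (adjusted p = 0.0176), and the choline kinase Chkb at -0.40. Both anchors of Ache were thus lower in Cy5, as Ache was. Between the groups 0 of the 10 passed, with a median of -0.046.

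The receptors for acetylcholine were mixed, with the muscarinic genes mostly higher in Cy5 and most nicotinic genes not called higher. A gene had to be well above background in Cy5 to be tested, so genes low in Cy5 could be left out of these counts. Of 4 muscarinic receptor genes tested, 3 were called higher in Cy5 and 1 lower. Chrm3 stood at 1.63 ± 0.063 (limma adjusted p = 5.26e-06), Chrm4 at 1.4 ± 0.066 and Chrm1, well above background in Cy3 on 3 of 4 arrays, at 0.70 ± 0.068. Chrm2, the subtype known from motor neurons and their inputs, was at -0.27 ± 0.083 (adjusted p = 0.0293). Chrm5 was not tested, being well above background in Cy5 on 0 arrays and in Cy3 on 2. Of 15 nicotinic receptor genes, 6 were called higher, 1 lower and 8 neither. Among those called higher, Chrnb3 passed the background flag in Cy5 on 4 arrays and in Cy3 on 0, so it entered only through the channel where it was high. The genes Chrna3 and Chrna5, subunits of ganglionic receptors, stood at 1.30 ± 0.058 and 1.08 ± 0.064, and Chrng, the fetal muscle subunit, at -0.31 ± 0.058. Of 8 genes for partners of these receptors, 2 were called higher, 1 lower and 5 neither, with Lrp4, the agrin receptor, at -0.77 ± 0.062 and Ly6h, a modulator of nicotinic receptors, at 0.51 ± 0.056. The median ratios of the 3 lists were 1.05, 0.081 and 0.071. Between the groups, 0 genes of the 3 lists passed, with medians of -0.020, -0.014 and 0.050.

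Other genes known from motor neurons did not share the low Cy5 signal as a list. Of 21 tested, 12 were called higher in Cy5, 4 lower and 5 neither, with a median ratio of 0.32 (0.49 in the scanner software's log ratio and 0.57 with median centring). The highest included Isl1 and Isl2, LIM homeobox factors of motor and sensory neurons, at 2.54 ± 0.090 and 2.17 ± 0.099, Prph, an intermediate filament of motor and peripheral neurons, at 2.73 ± 0.16, and Chrna3. These genes are also known from sensory ganglia. Slc10a4, a vesicular protein of cholinergic and monoaminergic neurons that was singled out after its values were seen, stood at -1.05 and -1.48 on the oxaliplatin arrays and at -1.21 and -0.63 on the vehicle arrays, with oxaliplatin replicate 2 lowest and vehicle replicate 2 nearest to 0, as in both transporters. Of the list, 0 genes passed between the groups. Bcl6, a transcriptional repressor, had the smallest p, with a difference of -0.41 (limma adjusted p = 0.332).

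**Figure D4:**
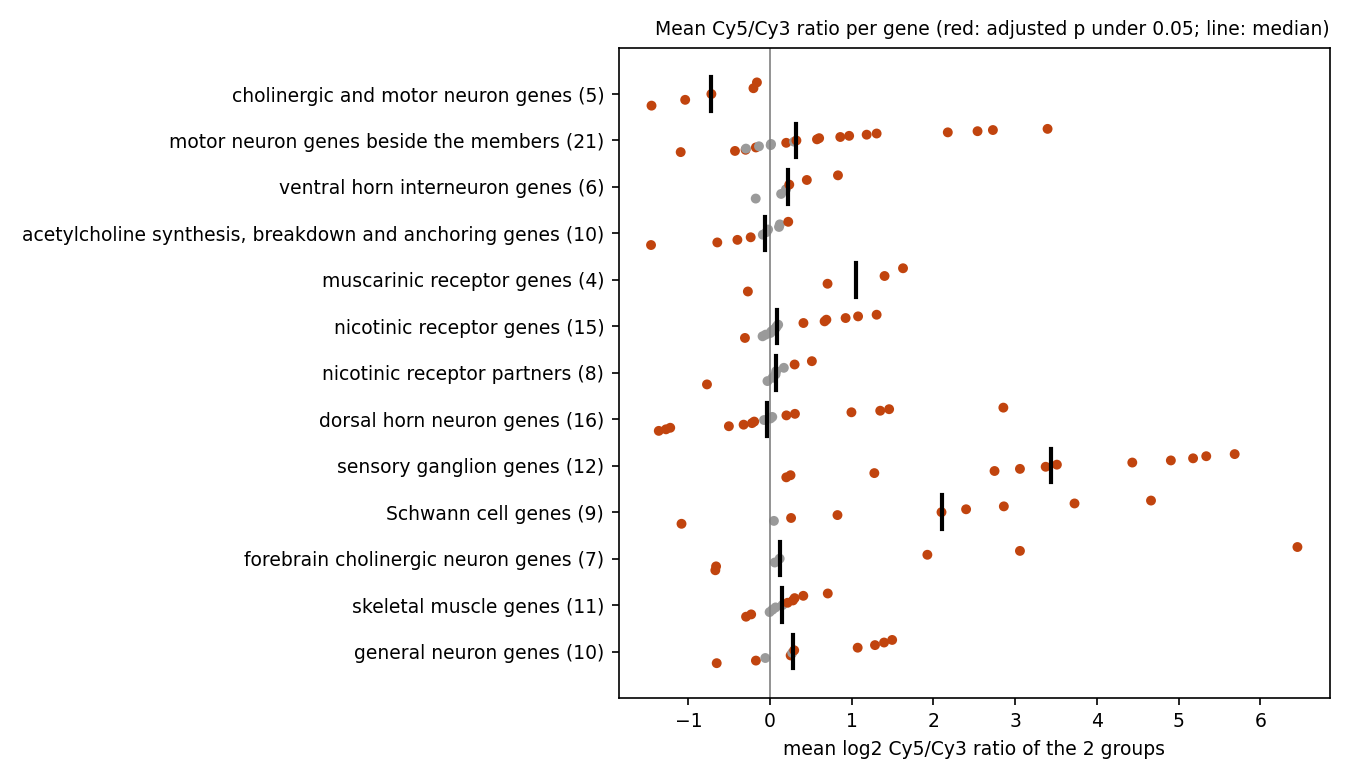
Mean log2 Cy5/Cy3 ratio of the 2 groups (x axis) for the cholinergic and motor neuron genes and for each gene list (y axis, number of genes tested in brackets), with 1 point per gene, red where the limma adjusted p was under 0.05, and a line at the median. The 5 genes of the set all lie below 0, while the sensory ganglion genes all lie above it.

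Other marker lists bear on the content of the 2 channels. Of 12 sensory ganglion genes, 12 were called higher in Cy5, with a median ratio of 3.44. Avil, an actin regulator of peripheral sensory neurons, stood at 4.91 ± 0.086. Their summed normalised signal in Cy5 was 200700 to 215700 on the oxaliplatin arrays and 229900 to 231900 on the vehicle arrays. In Cy3 it was 25770 to 36540 and 25010 to 33100. None of the 12 was at 0, and Mrgprd, a receptor of nonpeptidergic nociceptors, passed the background flag in Cy5 on 3 of 4 arrays and in Cy3 on 1. Of 9 Schwann cell genes, 7 were called higher and 1 lower, Mbp, which central myelin also holds. Their summed signal in Cy5 was 68610 to 88540 on the oxaliplatin arrays and 64080 to 66770 on the vehicle arrays, and in Cy3 103000 to 196400 and 103000 to 114800. Only Mbp, at -1.08, had a mean ratio below 0, so the higher sum in Cy3 reflects Mbp and not the list. In a list for forebrain cholinergic neurons, Lhx8 and Nkx2-1, factors that specify those neurons, were at 0.057 and 0.12 and not called. That list, 7 genes, had a median of 0.12 (-0.064 with median centring), with 3 called higher and 2 lower. The part of these other tissues in the low Cy5 ratios of the cholinergic genes was not tested.

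Most dorsal horn genes with a probe were present in both channels, and they split in direction. Of 17 with a probe, Nmur2 was not tested, being well above background in Cy5 on 0 arrays and in Cy3 on 2. The 16 tested needed that flag in Cy5 on at least 2 arrays. All 16 had it on every array in Cy5 and in Cy3. Of these, 7 were called lower in Cy5 and 6 higher, with a median of -0.035 that turned to 0.19 with median centring. Lbx1, a homeobox factor of dorsal horn interneurons, was at -1.22 ± 0.056 and the opioid precursor Penk at -1.36 ± 0.063. The peptide gene Cck was at 2.86 ± 0.075. General neuron genes, 10 tested, had 6 called higher and 2 lower, with a median of 0.28 (0.96 with median centring). The low ratios of the 5 cholinergic and motor neuron genes were thus shared with some dorsal horn genes, and not with neuronal genes as a list.

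Of 15 ventral horn interneuron genes, 11 had a probe and 6 were tested. Among those with a probe that were not tested, Dmrt3 was well above background in Cy3 on 4 arrays and in Cy5 on 0, Sim1 on 2 and 0, and Gata3 on 2 and 1. Of the 6 that passed the filter on Cy5, 3 were called higher in Cy5 and 0 lower, a count from which that filter had removed genes low in Cy5. Their median was 0.21, and -0.018 with no filter on dim probes. Shox2 stood at 1.34 and 1.25 on the oxaliplatin arrays and at 0.30 and 0.43 on the vehicle arrays (limma adjusted p = 0.229 between the groups). Its Cy5 signal was higher on the oxaliplatin arrays by 2.26 (limma adjusted p = 0.0773) and its Cy3 signal by 1.34 (limma adjusted p = 0.150). Shox2 passed the background flag in Cy5 on 4 arrays and in Cy3 on 3. Foxp2 stood at 0.44, 0.44, 0.45 and 0.47. Skeletal muscle genes, listed because Ache and Colq are also made in muscle, had a median ratio of 0.15 over 11 genes, with 5 called higher and 2 lower. Their summed normalised signal was 3187 to 3190 in Cy5 on the oxaliplatin arrays and 3227 to 3302 on the vehicle arrays, and 2754 to 2871 and 2892 to 2976 in Cy3. Of these, Myh2 passed the background flag in Cy3 on 1 of 4 arrays. Between the groups 0 genes of any of these lists passed.

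The genes most like each member were sought over its 8 single-channel values, from 4 arrays with 2 channels each, which share arrays and normalisation. For Slc5a7 these were Nexn (Pearson r = 0.992) and Vof16 (0.990), and Slc18a3 followed in place 4 of 12600 genes at 0.982. For Slc18a3 they were Znhit6 (0.983) and Brd2 (0.982), with Slc5a7 in place 3. By this measure the 2 transporters resembled each other more than nearly all other genes did. The 8 values include the step from Cy3 to Cy5, which was down in both genes, so r holds that step too. The part of the step in r was not tested. For Chat the nearest were Mgat4c (0.984) and Hoxc5 (0.970), and its nested neighbour Slc18a3 stood in place 190 at 0.739. For Ache they were Tmem151a (0.995) and Tmem39b (0.994), and no other gene of the set came closer than 0.459. For Mnx1 they were G3bp2 (0.973) and Alg11 (0.972), with Slc5a7 at 0.755.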

How the data were processed

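Total RNA was measured on 4 arrays of 62976 spots, 4259 of them controls. Per the file headers, the deposited scanner files give spot and local background intensity as median pixel signals, Agilent's processed intensity, flags of 0 or 1, and the log10 ratio of Cy5 over Cy3. Per the file headers the software was Agilent Feature Extraction 10.7.1.1, and 8.5.1.1 per the submitters' processing notes. In the value table the authors deposited stand the same log10 ratios to within 0.0050. Its medians were -0.00277, 0, -0.00492 and -0.00316.

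With limma 3.58.1 (R 4.3.3), background was corrected by normexp with an offset of 50. Loess within each array gave log2 ratios, control spots having weight 0, outlier spots left out and spots of a probe averaged. Probes well above background in Cy5 on at least 2 arrays were kept (26013), and a gene was represented by its brightest probe. Accessions gave 18750 probes a symbol. Single channels were normalised by Aquantile and then by quantile. Groups were compared by lmFit and eBayes (residual df 2, prior df 4.74), two-sided, at an adjusted p under 0.05 (Benjamini-Hochberg, all genes). The extract protocol names Cy3 labelling, and dyes were taken from the channel labels. The ratios of the 4 arrays correlated by 0.754 to 0.928. The number of arrays limits the precision. On simulated data of 22831 genes, the group comparison recovered 75% of 100 genes changed 2-fold and 99% of 100 changed 4-fold, with 7 false calls. In the simulation genes varied independently, and no slide or array effect was added. The share recovered on the real arrays, where slide and group coincide, is therefore not known from it.

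The 6 genes and the 12 lists were chosen with earlier results of these data known. Named were the 6 genes, up to 4 genes of each list with the smallest p in Cy5 against Cy3 and up to 2 between the groups, and the 2 genes most like each member. Some genes picked by this rule are not reported here. Alternatives were median centring, the log ratio of the scanner software, scaled ratios, no background correction, no filter, the mean over probes, each array left out and the replicate number as a block. For single channels they were the processed signal at its 75th percentile, each array left out and the block.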

Additional observations from a re-analysis of the deposited data

How the results depend on the processing

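The 5 mean ratios stayed below 0 under every alternative run, and all 5 calls held with median centring, the log ratio of the scanner software, scaled ratios, no background correction, no filter on dim probes and the mean over probes. Calls of Cy5 against Cy3 numbered 12695, and 9327 to 13947 under the alternatives. Between the groups, 0 genes were called in the ratio, 2 to 963 when an array was left out (963 without oxaliplatin replicate 1). In Cy5 alone the count of 0 became 0 to 5809 (5809 without vehicle replicate 1), and in Cy3 alone 0 to 1521 (1521 without vehicle replicate 1). With the lone array of a group assumed to vary like the others, these counts rest on 1 residual degree of freedom. The replicate numbers of the groups do not pair the arrays: deviations of same-numbered arrays correlated by -0.222. With the replicate block 3 genes were called between the groups, and the calls of Chat and Mnx1 in Cy5 against Cy3 were lost (adjusted p = 0.0555 and 0.0994). A replicate block with crossed numbers, chosen after seeing the data, gave 561 calls between the groups in the ratio, Slc5a7 among them as 1 of the 5 genes, and 0 in Cy3. Signs turned for differences near 0. That of Chat in the ratio became -0.28 with median centring and -0.16 with the log ratio of the scanner software, and ran from -0.092 to 0.17 when an array was left out. When an array was left out, the Cy5 differences ran from -0.19 to 0.14 for Chat, -0.10 to 0.17 for Slc18a3, -0.048 to 0.041 for Slc5a7 and -0.073 to 0.032 for Mnx1, and the Cy3 difference of Chat from -0.22 to 0.10. That of Slc18a3 in Cy5 was -0.13 with the processed signal at its 75th percentile. The causes were not tested. Of 288 list medians under alternatives, 37 moved by more than the spread between arrays. All 5 genes were also detected by the flag of a signal significantly above background.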
